A study of Homo sapiens with 8 samples.

Results

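The mitochondrial ribosomal protein genes were examined by RNA-seq in Kyse510 cells, an established human cell line of esophageal squamous cell carcinoma (ESCC), after LSD1 or G9a was inhibited or silenced. The members were all protein-coding genes whose symbol starts with MRPL or MRPS and a number, which gave 78 genes of the 34164 listed in the series, with 49 MRPL genes (named after the large subunit) and 29 MRPS genes (named after the small subunit). All 78 were listed in both deposited tables, which hold 31582 genes for the inhibitor libraries and 28942 genes for the knockdown libraries. There were 8 libraries, with 1 library per condition, so no difference between conditions had a replicate check and no test between conditions was made. In the inhibitor table, cells received vehicle (DMSO), 7 µM SP2509 (an inhibitor of the histone demethylase LSD1), 7 µM UNC0642 (an inhibitor of the histone methyltransferase G9a), or both inhibitors for 2 days, and no separate dose was given for the combination. In the knockdown table, cells carried a doxycycline- (Dox-) inducible shRNA against LSD1 (shLSD1) or G9a (shG9a), underwent 14 days of puromycin selection, and were analyzed without Dox or after 2 days with Dox. The control of each knockdown was the same line without Dox. Each line rests on 1 hairpin, and no library from cells with Dox and a nonsilencing hairpin was analysed here, so Dox and silencing cannot be told apart in these comparisons. The 3 inhibitor comparisons share the vehicle library.

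The mitochondrial ribosome (mitoribosome) is made in part from RNA encoded in the mitochondrial DNA and in part from proteins encoded in the nucleus, made in the cytosol and imported. It translates the few messages of the mitochondrial genome, which encode core subunits of the respiratory chain and of ATP synthase. Some of its proteins have counterparts in bacterial ribosomes and carry their numbers, while those with higher numbers are mostly found in mitochondria only. Names do not always give the place of a protein: MRPS30 and MRPS18A sit in the large subunit, and MRPS36 is known as a component of the 2-oxoglutarate dehydrogenase complex. Doxycycline belongs to the tetracyclines, which bind bacterial ribosomes and also slow mitochondrial protein synthesis.

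Levels are given as FPKM (fragments counted on a gene, scaled by gene length and library total). The totals recovered from the steps of these values were 15662035 to 17889466 reads per library, and the reads assigned to genes made up 99.6% to 99.8% of them. The knockdowns were visible in their own transcripts, since KDM1A (LSD1) was at 26.0 FPKM without Dox and 6.29 FPKM with Dox in the shLSD1 line, and EHMT2 (G9a) was at 7.85 FPKM without Dox and 4.76 FPKM with Dox in the shG9a line. The other target was also read in each line, as a log2 ratio of (FPKM + 1). KDM1A was higher with Dox in the shG9a line (0.43), as were 32.9% of all genes at 1.3-fold, and EHMT2 was at −0.005 in the shLSD1 line. The inhibitors act on the proteins, and KDM1A ranged from 32.0 to 40.7 FPKM and EHMT2 from 5.38 to 11.1 FPKM in that table, lowest for both in the combination. The labelled epithelial cell type was checked with some of its 8 markers: KRT17 ranged from 158 to 3716 FPKM, KRT5 from 74.6 to 734 FPKM and EPCAM from 101 to 206 FPKM. The markers were not all abundant. The lowest of the 8 (KRT5, KRT6A, KRT14, KRT17, TP63, SFN, CDH1 and EPCAM) was at 0.676 FPKM in vehicle, where 2 were under 2 FPKM. The leukocyte marker PTPRC stayed at or under 0.0425 FPKM in every library. Of the other markers for leukocytes, fibroblasts and endothelium, CDH5 (3.28 to 14.02 FPKM), COL1A1 (2.92 to 5.36 FPKM), CD14 (up to 2.67 FPKM), COL3A1 (up to 1.501 FPKM) and VWF (up to 1.42 FPKM) exceeded 1 FPKM in some library.

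The members together held 0.384% of the reads in the vehicle library, where their summed level was 1575 FPKM and their median 16.5 FPKM. The sum was 1228 FPKM with SP2509, 1463 FPKM with UNC0642 and 1370 FPKM with both inhibitors. In the knockdown table, it was 1405 FPKM without Dox and 1628 FPKM with Dox in the shLSD1 line, and 1452 FPKM and 1885 FPKM in the shG9a line. The sum was thus lower than in vehicle with every inhibitor and higher with Dox in both lines. The most abundant members in vehicle were MRPL3 at 71.1 FPKM, a large subunit protein near the peptidyl transferase centre, MRPS35 at 65.8 FPKM, and MRPL24 at 64.7 FPKM, which lies near the exit of the peptide tunnel. The lowest were MRPS24 at 0.269 FPKM, MRPL38 at 0.279 FPKM and MRPS18C at 0.302 FPKM. In these bulk samples, fewer cells that express a gene and less RNA per cell cannot be told apart.

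A group of 8 members stayed under 4 FPKM in every library: MRPL38, MRPS18C, MRPL46, MRPS28, MRPL12, MRPL53, MRPS24 and MRPS17. Their values ranged from 0.0442 to 3.98 FPKM over the 8 libraries, and values of the other 70 members ranged from 2.65 to 98.4 FPKM, so the 2 ranges overlap. Between 45.1% and 100% of the coding bases of these 8 lay within exons of another gene in GENCODE release 44, and for 7 of them more than 45% lay in exons on the same strand. Of the other 70 members, 6 shared more than 45%, with 5 of these on the same strand. Both limits (4 FPKM and 45%) were set after the values were seen, at the edges of this group, so the counts are a description of it. MRPL12 shared 96.0% of its coding bases with an overlapping gene, MRPS24 shared 92.2% with the read-through gene URGCP-MRPS24, and MRPS17 shared all of them with others, NIPSNAP2 included. NIPSNAP2 itself was at 4.67 to 19.7 FPKM. URGCP-MRPS24 and the overlapping gene of MRPL12 were not among the listed rows, GENCODE 44 is later than the annotation that the authors used, and the part of the overlap in these levels was not tested. Reads of overlapping genes may have been split or dropped in the counting, so the levels of these 8 members are uncertain.

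**Figure D1:**
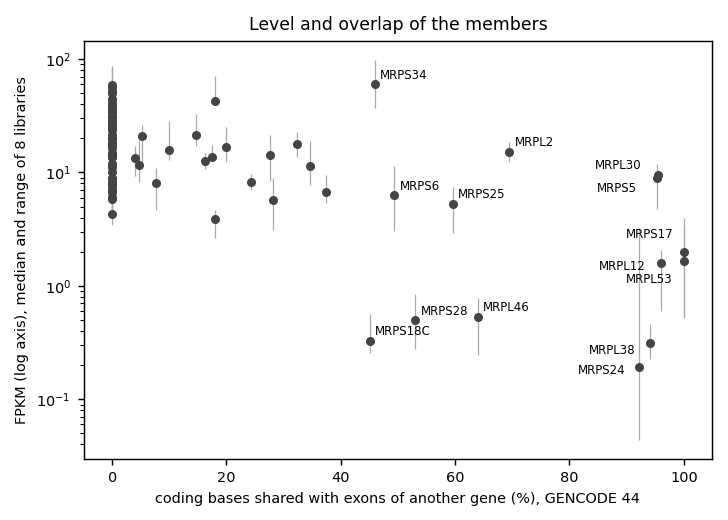
Level of each of the 78 members (FPKM on a log axis, point for the median and line for the range over 8 libraries) against the share of its coding bases that lies within exons of another gene in percent. The 8 members under 4 FPKM in every library lie to the right of 45%, limits set after the values were seen, together with 6 members at higher levels, such as MRPS34, MRPL2 and MRPS6.

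For each treated library, a ratio of (FPKM + 1) was taken against its own control, and a gene was called higher or lower at a ratio of at least 1.3-fold when it had at least 1 FPKM in at least 1 of both libraries. Under this filter, 73 members entered each comparison except the combination, where MRPS24 made it 74. MRPL38, MRPL46, MRPS18C and MRPS28 did not pass in any comparison. A ratio of reads is given with its 95% interval (exact Clopper-Pearson), which covers counting error only and not the spread between cultures. Of the 73 members that passed the filter in all 5 comparisons, 61 (83.6%) were called at least once, as were 90.3% of the 11376 genes that passed in all 5. MRPL10, MRPL22, MRPL23, MRPL37, MRPL42, MRPL43, MRPL55, MRPL57, MRPL9, MRPS18A, MRPS2 and MRPS5 stayed within the fold in all 5.

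**Figure D2:**
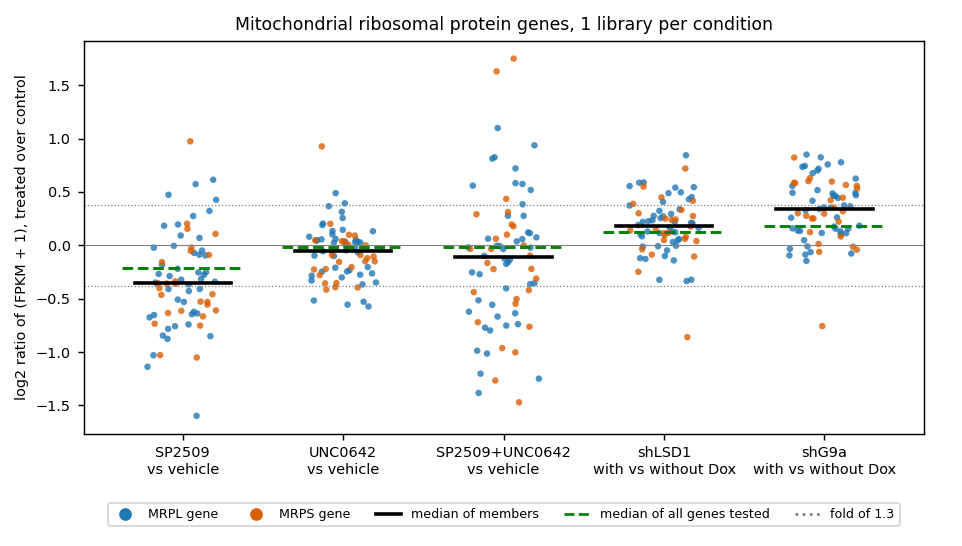
Log2 ratio of (FPKM + 1), treated over control, for each member that passed the filter (73 or 74 per comparison). Solid bars are medians of the members and dashed bars medians of all genes tested. With SP2509 most points lie below 0 (59 of 73), and with Dox in the shG9a line most lie above 0 (62 of 73).

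With SP2509, 33 of 73 members (45.2%) were lower than in vehicle and 5 (6.85%) were higher, while 39.9% of all 13342 genes tested were lower and 21% were higher. The median log2 ratio was −0.35 for the members and −0.21 for all genes, a difference of −0.15. Restricted to genes that reached 5 FPKM in each of the libraries compared, 40.3% of 62 members and 29.6% of 5739 genes were lower, and 6.45% and 19.2% were higher. The count depends on how the libraries are scaled. Genes that reached 5 FPKM in each library had a median log2 ratio of −0.09, and TMM scaling, which trims the extreme ratios before averaging, took −0.30 as the common shift. The average was unweighted and taken over genes detected in both libraries with no minimum level, so genes under 1 FPKM entered this shift. With TMM scaling, 13 members were lower and 13 higher (17.8% each), with a median of −0.06, while 24.9% of all genes were lower and 34.1% higher, with a median of 0.09. The share of lower members was then below that of all genes, where it had been above it, and the share of higher members stayed below. Among the 37 members that share no exonic bases with another gene, 11 (29.7%) were lower, also below the share of all genes, which were not filtered for overlap. The median of these 37 members was −0.32, still below the −0.21 of all genes, and 5.41% of them were higher, against 21%.

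MRPL28, whose bacterial counterpart is L28, was the lowest relative to vehicle. It was at 29.0 FPKM (1091 reads) in vehicle and 8.90 FPKM (381 reads) with SP2509, a read ratio of 0.307 (0.273 to 0.346). In the other inhibitor libraries it was at 29.5 FPKM with UNC0642 and 22.4 FPKM with both, so it was called in the SP2509 library alone, and the lower value in the combination did not reach the fold. MRPL30 was at 11.7 FPKM in vehicle and 4.79 FPKM with SP2509, with a read ratio of 0.408 (0.349 to 0.475). It shared 95.3% of its coding bases with exons of other genes on the same strand, so its level is uncertain too. MRPS16, a counterpart of bacterial S16, was at 24.4 and 11.2 FPKM, with a read ratio of 0.461 (0.416 to 0.511). MRPL1, the protein of the L1 stalk from which the used tRNA leaves, was at 21.7 and 10.1 FPKM, with a read ratio of 0.466 (0.408 to 0.531). On the scale of (FPKM + 1), these log2 ratios were −1.60 for MRPL28, −1.14 for MRPL30, −1.05 for MRPS16 and −1.03 for MRPL1.

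MRPS25, a small subunit protein without a bacterial counterpart, was at 7.05 FPKM in vehicle and 2.94 FPKM with SP2509, and is uncertain likewise, with 59.6% of its coding bases shared on the same strand. MRPL24 was at 64.7 and 34.8 FPKM, MRPL35 at 20.3 and 10.8 FPKM, and MRPL51 at 37.3 and 20.3 FPKM, with log2 ratios of −0.88, −0.85 and −0.85. The 5 members higher with SP2509 were MRPS6 with a log2 ratio of 0.97, MRPL44 with 0.61, MRPL54 with 0.57, MRPL33 with 0.47 and MRPL32 with 0.43. MRPL44, which has a fold related to RNase III, was at 20.97 FPKM in vehicle and 32.6 FPKM with SP2509. By name, 14 of 26 MRPS genes and 19 of 47 MRPL genes were lower. The genes with a bacterial number (MRPL up to 36 and MRPS up to 21) were lower in 20 of 43 cases and those with a higher number in 13 of 30.

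**Figure D3:**
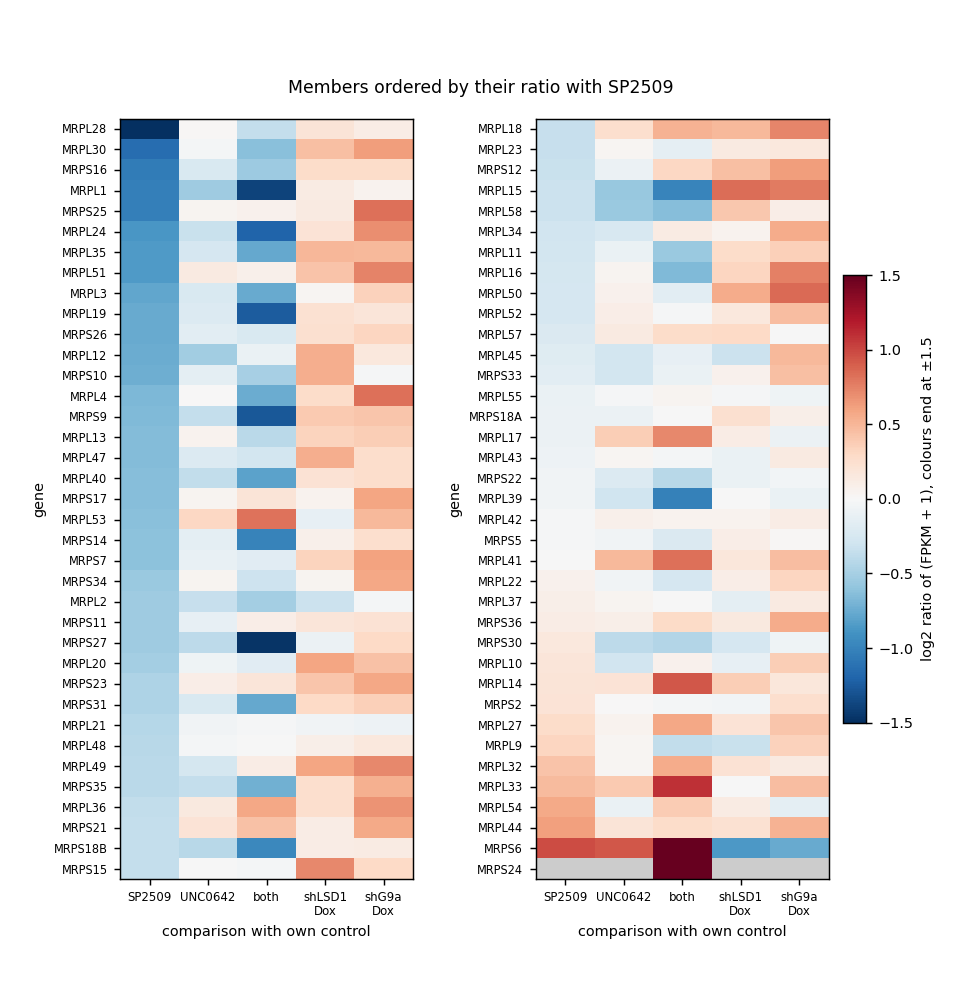
Log2 ratio of (FPKM + 1) of the 74 members that passed the filter in at least 1 comparison (rows, ordered by the ratio with SP2509) in the 5 comparisons (columns). Blue is lower and red higher than the own control, and grey is below the filter. MRPL28 is at the top with −1.60, and MRPS6 near the end is red with each inhibitor (0.93 to 1.63) and blue with Dox in both lines (−0.86 and −0.76).

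With UNC0642, 7 of 73 members (9.59%) were lower and 3 (4.11%) higher, while 16.9% and 18.2% of all 13244 genes tested were. The median log2 ratio was −0.05 for the members and −0.01 for all genes, so most members lay close to their vehicle level. Restricted to genes that reached 5 FPKM in each of the libraries compared, the log2 ratios had a standard deviation of 0.22 over 67 members and 0.44 over 6449 genes. The lower members were MRPL15, MRPL58, MRPL1, MRPL12, MRPS18B, MRPS30 and MRPS27. MRPL15 was at 54.9 FPKM in vehicle and 36.6 FPKM with UNC0642, with a read ratio of 0.666 (0.606 to 0.732). MRPL58, a peptidyl-tRNA hydrolase built into the large subunit that can free stalled ribosomes, was at 21.1 and 14.0 FPKM. MRPL12 was at 1.68 and 0.870 FPKM, where few reads gave a wide interval of the read ratio, from 0.261 to 0.998. The 3 higher members were MRPS6 with a log2 ratio of 0.93, MRPL41 with 0.49 and MRPL33 with 0.39. MRPL41, a protein with no bacterial counterpart, was at 15.3 FPKM in vehicle and 21.8 FPKM with UNC0642.

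With both inhibitors, 25 of 74 members (33.8%) were lower and 13 (17.6%) higher, while 31.7% and 31.4% of all 13907 genes tested were. The median log2 ratio was −0.11 for the members and −0.02 for all genes. Restricted to genes that reached 5 FPKM in each of the libraries compared, 35.9% of 64 members and 24.8% of 5910 genes were lower, and 15.6% and 28.9% were higher. The ratios of the members spread more widely here, with an SD of 0.57 over these 64 members, against 0.42 over 62 members with SP2509. MRPS27, a pentatricopeptide repeat protein of the small subunit, was at 21.3 FPKM (2174 reads) in vehicle and 7.05 FPKM (775 reads) with both, a read ratio of 0.331 (0.304 to 0.359). It was at 14.5 FPKM with SP2509 and 15.99 FPKM with UNC0642. MRPL1 was at 7.68 FPKM, with a log2 ratio of −1.38. These 2 genes were called lower in all 3 inhibitor libraries, which share their vehicle. This joint count was not made over all genes. Taken singly, 39.9%, 16.9% and 31.7% of all genes tested were lower with SP2509, UNC0642 and both.

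MRPS9, a counterpart of bacterial S9, was at 21.4 FPKM in vehicle and 8.32 FPKM with both inhibitors, and MRPL19 was at 20.9 and 8.21 FPKM. MRPL24 was at 64.7 and 27.5 FPKM, with a log2 ratio of −1.20, and MRPL39, MRPS14 and MRPL15 had log2 ratios of −1.01, −1.003 and −0.99. MRPL39 was at 21.8 FPKM with SP2509 and 18.1 FPKM with UNC0642, against 22.6 FPKM in vehicle and 10.7 FPKM with both. MRPL39 was therefore called lower in the combination and in neither single inhibitor.

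On the other side, MRPL33 was at 12.7 FPKM in vehicle, 18.1 FPKM with SP2509, 17.0 FPKM with UNC0642 and 28.4 FPKM with both inhibitors, with a read ratio for the combination of 2.23 (1.95 to 2.56). MRPL14, which lies at the interface of the subunits, was at 34.2 FPKM in vehicle, 39.2 FPKM with SP2509, 39.5 FPKM with UNC0642 and 66.3 FPKM with both. MRPL41 was at 27.8 FPKM with both, and MRPL17 and MRPL36 had log2 ratios of 0.72 and 0.58. Both low members in this group are uncertain for the overlap given above: MRPS24 was at 0.269 FPKM (11 reads) in vehicle and 3.26 FPKM (144 reads) with both, with a read ratio of 12.1 (6.59 to 24.9), and MRPL53 was at 1.38 and 3.17 FPKM.

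In the shLSD1 line, 16 of 73 members (21.9%) were higher with Dox and 1 was lower, while 24.8% and 12.3% of all 12970 genes tested were. The median log2 ratio was 0.18 for the members and 0.13 for all genes, a difference of 0.05. The share of higher members was therefore near that of all genes, and the share of lower members (1.37%) was below it. Among genes that reached 5 FPKM in both of these libraries, 21.2% of 66 members and 21.5% of 6082 genes were higher, and 0% and 10.01% were lower. Relative to the median of these genes (0.11), 9 members were higher and 4 lower (12.3% and 5.48%, against 17.03% and 16.6% of all genes). With TMM scaling, whose shift was 0.14, 8 were higher and 5 lower (10.96% and 6.85%, against 15.3% and 18.4%). MRPL15 was at 27.6 FPKM without Dox and 50.3 FPKM with Dox, with a read ratio of 1.82 (1.65 to 2.02). MRPS15, a counterpart of bacterial S15, was at 30.3 and 50.6 FPKM. MRPL20 (0.59), MRPL49 (0.59), MRPL50 (0.55), MRPS10 (0.55), MRPL47 (0.55) and MRPL12 (0.54) followed in log2 ratio. MRPL12 rested on 0.986 and 1.89 FPKM, and its read ratio had an interval of 1.05 to 3.60. The 1 lower member was MRPS6.

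In the shG9a line, 31 of 73 members (42.5%) were higher with Dox and 1 was lower, while 32.9% and 17.6% of all 13080 genes tested were. The median log2 ratio was 0.34 for the members and 0.18 for all genes, a difference of 0.16. Restricted to genes that reached 5 FPKM in each of the libraries compared, 40.6% of 64 members and 28.6% of 5922 genes were higher, and 0% and 15.7% were lower. Relative to that median (0.14 in this line), 20 members were higher and 1 lower (27.4% and 1.37%, against 22.5% of all genes each way). With TMM scaling, whose shift was 0.22, 12 were higher and 1 lower (16.4% and 1.37%), against 17.3% and 26.9% of all genes, so the share of higher members was no longer above that of all genes. The median was then 0.12 for the members and −0.045 for all genes. MRPL50 was at 6.90 FPKM without Dox and 13.2 FPKM with Dox, with a read ratio of 1.92 (1.69 to 2.17). MRPL4 was at 4.60 and 8.92 FPKM, MRPS25 at 3.36 and 6.70 FPKM, and MRPL15 at 34.6 and 60.1 FPKM, with log2 ratios of 0.82, 0.82 and 0.78.

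MRPL16, MRPL51, MRPL18 and MRPL49 followed with log2 ratios of 0.76, 0.74, 0.73 and 0.72. MRPL18, which lies in the central protuberance of the large subunit, was at 24.9 FPKM without Dox and 42.1 FPKM with Dox. Abundant members were among those higher, such as MRPS34 at 65.3 and 98.4 FPKM and MRPL24 at 53.4 and 87.4 FPKM. The 1 lower member was again MRPS6. By name, 20 of 47 MRPL genes and 11 of 26 MRPS genes were higher, which is 42.6% and 42.3%.

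The inhibitor and knockdown comparisons share no library. Of the 33 members lower with SP2509, 10 (30.3%) were among the 16 higher with Dox in the shLSD1 line (62.5% of these) and none were lower there. Over all genes above the filter in each of these 2 comparisons, 35.6% of those lower with SP2509 were higher in the shLSD1 line (60.8% of these), so the members' overlap was near that of all genes. In the shG9a line, 15 of the 33 (45.5%) were among the 31 members higher with Dox (48.4% of these), and for all genes these shares were 41.8% and 54.3%. Of 73 members, 21 (28.8%) were lower with at least 1 inhibitor and higher with Dox in at least 1 line, 8 (10.96%) were higher in both kinds of comparison, and none was lower in both. Of the 12567 genes that passed in both tables, 25.8%, 14.6% and 9.09% did so. MRPL30, uncertain for its overlap, is an example of the first, at 11.7 FPKM in vehicle and 4.79 FPKM with SP2509, and at 7.77 and 11 FPKM without and with Dox in the shLSD1 line and 6.07 and 9.90 FPKM in the shG9a line. MRPL15 had log2 ratios of −0.32, −0.57 and −0.99 with SP2509, UNC0642 and both, and of 0.84 and 0.78 with Dox in the shLSD1 and shG9a lines.

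Between the lines, 11 of the 16 members higher with Dox in the shLSD1 line (68.8%) were also higher in the shG9a line, which is 35.5% of its 31, and for all genes these shares were 58.0% and 44.4%. They were MRPL15, MRPL18, MRPL20, MRPL30, MRPL35, MRPL49, MRPL50, MRPL51, MRPS12, MRPS23 and MRPS9. MRPL33 was the member called higher in the most comparisons (4), and in the shLSD1 line it was at 14.4 FPKM without Dox and 14.3 FPKM with Dox. MRPL18 and MRPL41 were higher in 3. MRPL18 was at 33.5 FPKM in vehicle, 26.1 FPKM with SP2509, 40.2 FPKM with UNC0642 and 48.4 FPKM with both, so it lay below vehicle with SP2509, though within the fold.

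MRPS6, a counterpart of bacterial S6 that sits beside an S18 protein on the platform of the small subunit, was the 1 member called in all 5 comparisons. It was at 3.01 FPKM (203 reads) in vehicle, 6.89 FPKM (527 reads) with SP2509, 6.63 FPKM (510 reads) with UNC0642 and 11.4 FPKM (829 reads) with both inhibitors. In the shLSD1 line it was at 6.34 FPKM (484 reads) without Dox and 3.04 FPKM (229 reads) with Dox, and in the shG9a line at 6.23 FPKM (443 reads) and 3.28 FPKM (244 reads). It was thus higher than vehicle with each inhibitor and lower with Dox in both lines, and it was the 1 member higher with an inhibitor and lower with Dox. Of all 11376 genes that passed in all 5 comparisons, 6.36% were called in all 5, and 2.36% were higher with each inhibitor and lower with Dox in both lines. The read ratios were 2.28 (1.94 to 2.70), 2.20 (1.87 to 2.60) and 3.79 (3.25 to 4.44) for the inhibitors, and 0.480 (0.408 to 0.563) and 0.526 (0.448 to 0.616) for Dox in the shLSD1 and shG9a lines. The direction held with TMM scaling, where its log2 ratios were 1.27, 0.94, 1.63, −1.005 and −0.98.

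MRPS6 (ENSG00000243927) lies on the plus strand of chromosome 21 in GRCh38, from 34073224 to 34143034 in the deposited annotation. It shares its start with SLC5A3, the sodium/myo-inositol cotransporter that takes up myo-inositol as an osmolyte. The first exons of MRPS6-201 and SLC5A3-201 are the same 168 bases in GENCODE 44, chr21:34073578-34073745, after which the transcripts part. SLC5A3 was at 3.62 FPKM in vehicle and 5.94, 6.98 and 7.32 FPKM with SP2509, UNC0642 and both. It was at 2.27 FPKM without Dox and 1.46 FPKM with Dox in the shLSD1 line, and at 2.37 and 1.45 FPKM in the shG9a line. Both genes therefore lay on the same side of their control in all 5 comparisons, and reads from the shared exon can count for either. A noncoding gene on the same strand, absent from the listed rows, also overlaps exons of MRPS6 in GENCODE 44. The level of MRPS6 is therefore uncertain too. The last 150 bases of the shared RefSeq promoter window (GRCh38.p14, plus strand, chr21:34073428-34073577) are shown because they precede the RefSeq start of the member called in all 5 comparisons. The start in the deposited annotation (34073224) lies before these bases. They hold none of the 3 motifs searched below, so no letters are in capitals.
MRPS6: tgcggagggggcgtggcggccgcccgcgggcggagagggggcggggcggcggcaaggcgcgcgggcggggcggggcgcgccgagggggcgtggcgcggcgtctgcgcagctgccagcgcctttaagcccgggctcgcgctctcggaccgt

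**Figure D4:**
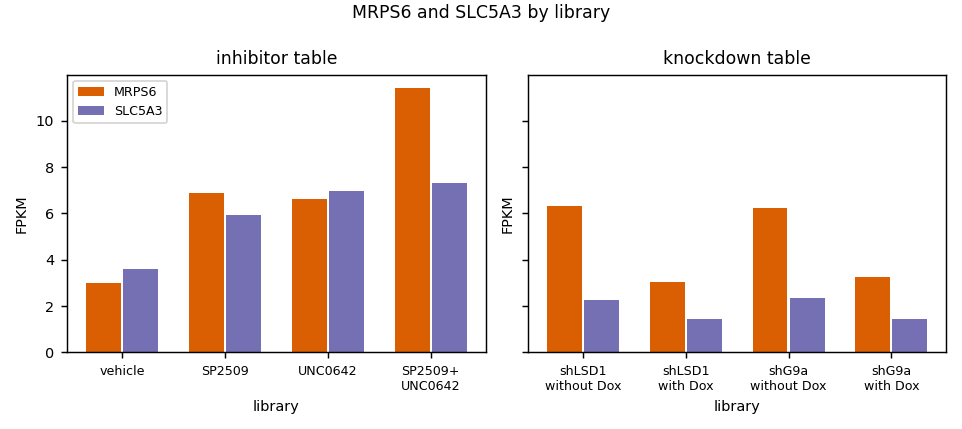
FPKM of MRPS6 (orange) and SLC5A3 (purple), which share a first exon, in each of the 8 libraries. Bars start at 0 and show 1 library each. MRPS6 is lowest in vehicle (3.01) among the inhibitor libraries, and both genes are lower with Dox than without it in both lines.

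The other members were also grouped by place in the ribosome. Among the proteins of the stalk that recruits translation factors, MRPL10 was at 19.7 FPKM in vehicle and 22.5, 15.96 and 20.6 FPKM with SP2509, UNC0642 and both, and it was called in no comparison. MRPL11 was at 29.8 FPKM in vehicle and 19.9 FPKM with both, with a log2 ratio of −0.56. MRPL12, which is bound to MRPL10 in several copies, was under 2.1 FPKM throughout and is among the uncertain members. Around the exit of the peptide tunnel (MRPL17, MRPL22, MRPL23, MRPL24, MRPL45 and MRPL47), 2 of 6 were lower with SP2509 and 2 of 6 higher with Dox in the shG9a line, where 39.9% and 32.9% of all genes were. These were MRPL24 and MRPL47 for SP2509, and MRPL24 and MRPL45 for Dox.

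In the central protuberance (MRPL18, MRPL38, MRPL40, MRPL46, MRPL48, MRPL52 and MRPL58), 5 of 7 passed the filter. With SP2509 none of these was higher, and MRPL40 and MRPL48 were lower (40%), while 21% of all genes were higher and 39.9% lower. MRPL40 was at 14.3 FPKM in vehicle and 8.80, 10.8 and 7.78 FPKM with SP2509, UNC0642 and both. The 3 human versions of bacterial S18 differed in level. MRPS18B was at 37.2 to 56.7 FPKM in all libraries but the combination, where it was at 25.1 FPKM, MRPS18A at 12.6 to 17.4 FPKM, and MRPS18C at 0.254 to 0.570 FPKM. MRPS18B was lower with UNC0642 and with both inhibitors (log2 ratios −0.42 and −0.96) and MRPS18A was within the fold in all comparisons. Of the proteins along the mRNA path, MRPS12, the counterpart of S12 at the decoding centre, was at 16.3 and 22.6 FPKM without and with Dox in the shLSD1 line and at 18.4 and 28.9 FPKM in the shG9a line, and MRPS5 stayed between 8.39 and 9.95 FPKM.

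The other genes of mitochondrial gene expression were described from lists. Of all genes tested, 39.9% were lower and 21% higher with SP2509, and 31.7% and 31.4% with both inhibitors. With Dox in the shG9a line, 32.9% were higher. The 6 mitoribosome proteins with other names (DAP3, PTCD3, CHCHD1, AURKAIP1, GADD45GIP1 and NDUFAB1) had 2 lower with SP2509 and 3 higher with Dox in the shG9a line, with medians of −0.22 and 0.41. With TMM scaling the first turned to 0.08 and the second was 0.19. Of 15 translation factors, 10 were lower with SP2509, 9 with both inhibitors and none higher in either, and 6 were higher with Dox in the shG9a line. GFM1, the elongation factor that moves the ribosome along, was at 10.2 FPKM in vehicle and 4.28 FPKM with SP2509, and at 4.28 and 7.96 FPKM without and with Dox in the shG9a line. The mitochondrial tRNA synthetases and the assembly factors were lower with SP2509 in 10 of 16 and 15 of 24 cases, and higher with Dox in the shG9a line in 10 of 16 and 13 of 23 cases. Of 9 genes for transcription and copying of the mitochondrial DNA, 7 were lower with SP2509 and 6 higher with Dox in the shG9a line. With both inhibitors, however, 1 of these 9 was lower and 2 were higher, with a median of −0.006. With Dox in the shLSD1 line 5 of the 9 were higher, against 24.8% of all genes. The medians of the translation factors, synthetases, assembly factors and this last list kept their sign with TMM scaling, at −0.26, −0.19, −0.21 and −0.16 with SP2509 and 0.11, 0.24, 0.22 and 0.21 in the shG9a line. TFAM, which packages this DNA, was at 20.0 and 11.5 FPKM in vehicle and SP2509, and at 7.80 and 14.7 FPKM without and with Dox in the shG9a line.

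The 13 protein-coding genes of the mitochondrial genome, whose messages the mitoribosome translates, had larger ratios than the members. They had a median log2 ratio of −1.31 with SP2509 (11 of 13 lower), −0.23 with UNC0642, −0.67 with both, 0.39 with Dox in the shLSD1 line (7 of 13 higher) and 0.94 with Dox in the shG9a line (12 of 13 higher). Of all genes, 39.9% were lower with SP2509, and 24.8% and 32.9% were higher with Dox in the shLSD1 and shG9a lines. MT-CYB, a subunit of complex III, was at 2931 FPKM in vehicle, 382 FPKM with SP2509, 2275 FPKM with UNC0642 and 1665 FPKM with both. The subunits of the respiratory chain encoded in the nucleus had medians of −0.27, −0.07, −0.17, 0.06 and 0.38 in the same order, and with TMM scaling the sign turned with SP2509 (0.03) and in the shLSD1 line (−0.08). The cytosolic ribosomal proteins had medians of 0.18, −0.17, 0.29, −0.13 and 0.03, so with SP2509 and with both inhibitors they lay above vehicle while the members' medians lay below it, and the last value turned to −0.20 with TMM scaling. Among cytosolic ribosomal proteins, 10 of 81 were higher and 4 lower with SP2509, where 21% and 39.9% of all genes were.

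**Figure D5:**
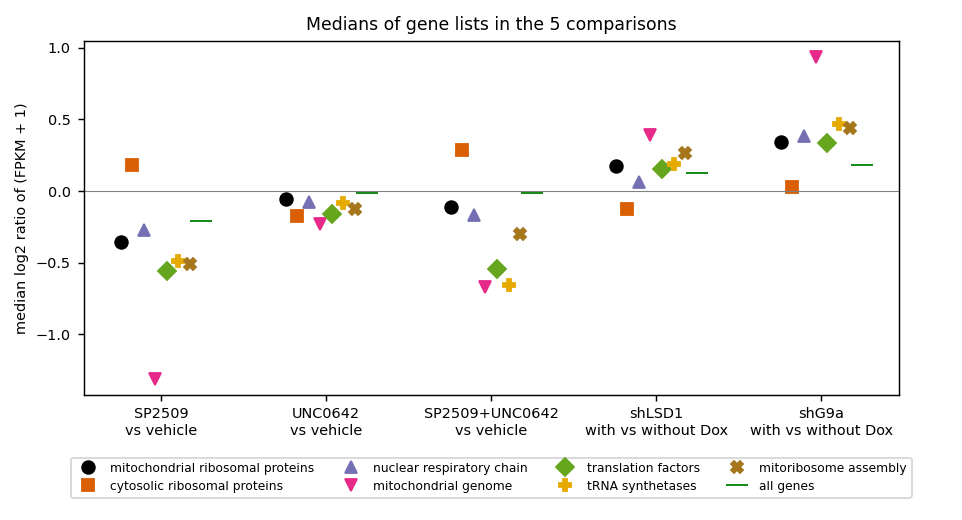
Median log2 ratio of (FPKM + 1) of 7 gene lists and of all genes in the 5 comparisons, with 1 symbol per list. The mitochondrial genome lies lowest with SP2509 (−1.31) and highest with Dox in the shG9a line (0.94), and the members lie below all genes with SP2509 and above them with Dox in the shG9a line.

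Among regulators known to act on such genes, NRF1 was at 4.54 FPKM in vehicle and 2.37 FPKM with SP2509, and YY1 at 22.8 and 15.3 FPKM. MYC was at 137 FPKM in vehicle and 697 FPKM with SP2509, at 219 FPKM without Dox and 105 FPKM with Dox in the shLSD1 line, and at 206 and 67.2 FPKM in the shG9a line. MYC was thus above its control with SP2509 and below it with Dox in both lines. Among the 8 listed regulators that passed the filter, the highest log2 ratio was 2.34 with SP2509, which was MYC. The highest was 0.23 with UNC0642 and 0.41 with both inhibitors, so MYC was at or under these values there. With SP2509, 4 of these 8 regulators were lower (50%) and 1 higher (12.5%), against 39.9% and 21% of all genes. None of the 8 was called with UNC0642, where 18.2% of all genes were higher and 16.9% lower. With both inhibitors 1 was higher and 1 lower (12.5% each), against 31.4% and 31.7% of all genes. With Dox in the shLSD1 line 5 were higher and 1 lower (62.5% and 12.5%, against 24.8% and 12.3%). In the shG9a line 2 were higher and 1 lower (25% and 12.5%, against 32.9% and 17.6%). GABPA was within the fold in all comparisons, between 4.89 and 8.60 FPKM, and PPARGC1A stayed at or under 0.147 FPKM. The part of these regulators in the members' levels was not tested.

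RefSeq promoter windows (GRCh38.p14, from 250 bases before to 50 after the gene start) were matched by symbol for 69 of 78 members and searched on both strands for the letters of 3 known motifs. The YY1 letters AAGATGGC were in 20 of 69 members (29.0%), in 2.89% of all 35116 windows and in 4.85% of 12980 windows of genes that were expressed. In 15 of the 20 a match lay after the gene start, and in 12 of these its ATG was an annotated start codon, so the letters there are also the start of the coding sequence. The letters CCGGAAGT, read by ETS factors such as GABP, were in 11 members (15.9%), against 4.14% of all and 7.67% of expressed genes. The NRF1 letters GCATGCGC, which overlap their own reverse complement, were in 6 members (8.70%), against 3.05% and 4.74%. A match is a description of the window and not a bound site. Promoters of MRPL52, MRPL17, MRPL27 and MRPL3 are shown as examples, each 5′ to 3′ up to the last base before the gene start. Matches to any of the 3 motifs on either strand are in capitals. MRPL3 has 1 match, and some members with 2 motifs, such as MRPL20 and MRPL22, are not shown. MRPL52 is the 1 member with all 3 motifs, and its ETS match crosses the gene start and is not marked. Its stretch is on the plus strand (chr14:22829687-22829886), and those of MRPL17 (chr11:6683341-6683440), MRPL27 (chr17:50373185-50373284) and MRPL3 (chr3:131502972-131503071) are on the minus strand.
MRPL52: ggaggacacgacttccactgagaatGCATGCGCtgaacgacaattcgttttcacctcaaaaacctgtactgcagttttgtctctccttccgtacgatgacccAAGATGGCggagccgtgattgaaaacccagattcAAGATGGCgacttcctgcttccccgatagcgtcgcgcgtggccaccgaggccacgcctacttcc
MRPL17: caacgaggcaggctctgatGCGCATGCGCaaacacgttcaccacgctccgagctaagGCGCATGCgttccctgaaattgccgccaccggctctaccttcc
MRPL27: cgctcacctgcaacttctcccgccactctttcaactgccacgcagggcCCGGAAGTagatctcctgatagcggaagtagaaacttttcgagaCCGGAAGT
MRPL3: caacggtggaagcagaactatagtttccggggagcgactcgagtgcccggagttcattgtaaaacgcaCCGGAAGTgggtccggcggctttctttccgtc

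The medians of members with and without these letters were compared as a description. With SP2509, the median log2 ratio was −0.34 for 17 members with the YY1 letters and −0.36 for 48 without, and with Dox in the shG9a line both medians were 0.33. For the ETS letters, the medians with SP2509 were −0.53 for 10 members and −0.35 for 55 without, and in the shG9a line 0.45 and 0.30. For the NRF1 letters, they were −0.09 for 5 members and −0.36 for 60 without with SP2509, and 0.14 and 0.35 in the shG9a line, so the 5 members with these letters lay nearer to their controls. Of the promoters shown, MRPL3 with an ETS match was at 71.1 FPKM in vehicle and 40.9 FPKM with SP2509, and MRPL27 with 2 was at 6.35 and 7.89 FPKM. MRPL17, with NRF1 letters, was at 11.2 FPKM in vehicle and 10.5, 14.7 and 19.1 FPKM with SP2509, UNC0642 and both, and MRPL52 stayed between 12.3 and 17.4 FPKM in all libraries.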

How the data were processed

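RNA of Kyse510 cells was sequenced as paired reads of 150 bases. After filtering their reads for quality and adapters, the authors mapped them to GRCh38 (annotation release 87) and deposited FPKM values in 2 tables, 1 column per library. The aligner, counting tool and strand setting are not given in the sources used here. The 2 tables differ in annotation (MRPL28 has another length in each), so values were compared within a table only. Whole reads were recovered from the FPKM steps (all but 3 or 4 genes per table, tolerance 0.0002 reads), and the procedure was tested on simulated data. Ratios used a pseudocount of 1 FPKM, a minimum of 1 FPKM in at least 1 of both libraries and a threshold of 1.3-fold, with no test, since each condition had 1 library. Genes named were the 8 members with the largest ratio in each direction per comparison, those called alike in 4 comparisons, the 3 highest and lowest in vehicle, members under 1 FPKM, MRPS18A, MRPS18B and MRPS18C, MRPL10, MRPL11, MRPL12, MRPL18 and MRPL58, and up to 4 genes a list. Others (such as MRPS34, MRPL40 and SLC5A3) were chosen after their values were seen. Alternatives were a pseudocount of 0.1, no filter, a minimum of 5 FPKM, centring, TMM scaling, 1.5-fold, a reads interval that excludes no change, and the mean of both uninduced libraries as control. Members without exonic overlap, and the counts at 5 FPKM in both libraries, were added after seeing the data. The members and lists were chosen with earlier results of these data known. Overlaps and exons came from GENCODE 44 and promoters from RefSeq. Python 3.11.15, numpy 2.4.6, pandas 2.3.3, scipy 1.17.1 and matplotlib 3.10.9 were used.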

Additional observations from a re-analysis of the deposited data

Results flagged for a closer look

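MRPS6 moved in opposite directions in the inhibitor and knockdown comparisons. Its log2 ratio of (FPKM + 1) was at least 0.93 with each of the 3 inhibitor treatments and was −0.76 or lower with Dox in both lines. The difference was not tested, and the level of MRPS6 is uncertain for its overlap with other genes.

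Rows for pseudogenes of these genes, which are not counted among the members, held few reads. Their sum was above the control beyond counting error in 1 comparison. In the shG9a line it was 70 reads without Dox and 107 with Dox, a read ratio of 1.46 (1.07 to 2.00), and the most abundant was MRPL45P2 at 1.24 and 1.84 FPKM. In the shLSD1 line the read ratio was 1.29 (0.973 to 1.71). With the inhibitors it was 0.560 (0.409 to 0.762) for SP2509, 0.868 (0.659 to 1.14) for UNC0642 and 0.590 (0.431 to 0.804) for both.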

How the results depend on the processing

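Each condition had 1 library, so counting intervals are the only error given, and members with few reads (MRPL12, MRPL53, MRPS24) are least certain. No paired analysis was possible because each condition had 1 library. No direction of a member median was reversed, and of 116 recomputed values 92 stayed close and 24 moved. With TMM scaling, SP2509 had 13 members higher and 13 lower (median −0.056; 17.8% each, against 34.1% and 24.9% of all genes), shLSD1 8 higher and 5 lower (0.033; all genes 15.3% and 18.4%), and shG9a 12 higher (0.12), which is 16.4% against 17.3%. In these shares of calls, the excess of lower members with SP2509 and of higher members in shG9a over all genes was thus absent with TMM scaling. The median of the members still lay below that of all genes with SP2509 (−0.056 against 0.089). In shG9a it still lay above (0.12 against −0.045). Centred on the median, shLSD1 had 9 higher and 4 lower (0.066), which is 12.3% and 5.48% against 17.03% and 16.6%, and shG9a 20 higher (0.20), which is 27.4% against 22.5%. At 1.5-fold, 2 members were higher with SP2509 (2.74%, all genes 15.2%), 1 higher and 0 lower with UNC0642 (all genes 10.9% and 8.82%), 7 higher with both inhibitors (9.46%, all genes 23.5%), 4 higher in shLSD1 (5.48%, all genes 12.3%) and 15 higher in shG9a (20.5%, all genes 18.4%). With a pseudocount of 0.1, 5 were higher with UNC0642 (6.85%, all genes 21.8%). Among the 37 members that share no exonic bases with another gene, chosen after seeing the data, 11 were lower with SP2509 (29.7%, below the 39.9% of all genes), 1 was higher with UNC0642 (2.70%, all genes 18.2%), and 0 were lower in shLSD1 and 0 in shG9a (all genes 12.3% and 17.6%). The median of these 37 with SP2509 was −0.32, against −0.21 for all genes.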
